A study of Homo sapiens with 2 samples.

Results

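The histone methyltransferase genes KMT2A, KMT2C, SETD2, NSD1 and NSD2 were examined for regions in which LSD2 chromatin exceeded input chromatin in HepG2 cells. A region, called an LSD2 interval here, was assigned to a gene when its midpoint lay between the annotated ends of that gene on the hg19 build. By this rule 173 of 370863 distinct intervals (0.0466%) lay in the 5 genes: 32 in KMT2A, 62 in KMT2C, 42 in SETD2, 25 in NSD1 and 12 in NSD2. HepG2, a hepatoma line of human origin, was kept in medium with 25 mM glucose and 10% serum. The data came from 1 LSD2 ChIP library, for which rabbits had been immunized with recombinant human LSD2 (residues 26 to 822) to give polyclonal antibodies, and 1 input library of chromatin from the same line with no antibody. With 1 library of each kind there was no replicate error to set a difference against. Intervals of a single list are not replicates either, so every comparison is given as a value with a counting interval and without a p. The deposited list gave positions only, the depth of the libraries is unknown, and an interval shows where the caller's cutoff was passed, not how strongly.

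LSD2, the product of KDM1B, is a flavin-dependent demethylase that removes methyl groups from lysine 4 of histone H3 (H3K4). The enzymes encoded by the 5 genes add methyl groups to H3 instead. KMT2A (also MLL1) and KMT2C (also MLL3) methylate H3K4, KMT2A mainly at promoters and KMT2C mainly at enhancers. SETD2 travels with elongating RNA polymerase and places the trimethyl mark on lysine 36 (H3K36), while NSD1 and NSD2 place the dimethyl mark there. LSD2 is known mainly from the bodies of transcribed genes, where H3K36 methylation is also found. Whether these genes are transcribed in HepG2 cells was not measured here.

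The genes lie on 5 different chromosomes, so none shares flanking sequence with another. KMT2A lies on the plus strand of chromosome 11 from 118307205 to 118397539, a length of 90.3 kb. KMT2C, the longest at 301 kb, lies on the minus strand of chromosome 7 from 151832010 to 152133090. SETD2 occupies 148 kb of the minus strand of chromosome 3 from 47057898 to 47205467. NSD1 occupies 167 kb of the plus strand of chromosome 5 from 176560080 to 176727214. NSD2 (also WHSC1) occupies 111 kb of the plus strand of chromosome 4 from 1873123 to 1983934. Strands and neighbouring genes were taken from RefSeq on GRCh38.p14. The nearest protein-coding genes upstream and downstream are ATP5MG and TTC36 for KMT2A, XRCC2 and GALNT11 for KMT2C, KIF9 and NBEAL2 for SETD2, FGFR4 and RAB24 for NSD1, and LETM1 and NELFA for NSD2. The flanks used for comparison were not divided into genes and intergenic sequence, since hg19 positions were used for the members alone.

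The sequences below are the promoters of 3 of the genes, shown to give the context of the 5′ ends to which distances along the genes refer. Each runs from 250 bases before to 50 bases after the RefSeq start on GRCh38.p14, 5′ to 3′ on the strand of the gene, with every CG dinucleotide in capitals. SETD2 is shown as the only member with an interval midpoint within 2 kb of its 5′ end, KMT2A as the densest member, and NSD2 as the member with the most CG dinucleotides. Their positions are chr3:47164064-47164363 (minus strand), chr11:118436242-118436541 (plus strand) and chr4:1871143-1871442 (plus strand).
SETD2: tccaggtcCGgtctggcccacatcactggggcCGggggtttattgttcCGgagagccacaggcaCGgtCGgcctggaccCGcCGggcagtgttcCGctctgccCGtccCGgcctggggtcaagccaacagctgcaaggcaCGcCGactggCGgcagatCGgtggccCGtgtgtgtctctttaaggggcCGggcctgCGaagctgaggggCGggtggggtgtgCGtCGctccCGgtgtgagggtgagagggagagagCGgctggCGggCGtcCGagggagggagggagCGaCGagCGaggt
KMT2A: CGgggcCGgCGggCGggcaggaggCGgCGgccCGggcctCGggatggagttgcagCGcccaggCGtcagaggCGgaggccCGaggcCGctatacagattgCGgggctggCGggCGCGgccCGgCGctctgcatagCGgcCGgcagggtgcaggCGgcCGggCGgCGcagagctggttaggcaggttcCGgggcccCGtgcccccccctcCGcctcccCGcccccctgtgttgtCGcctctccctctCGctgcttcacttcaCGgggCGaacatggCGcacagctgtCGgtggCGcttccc
NSD2: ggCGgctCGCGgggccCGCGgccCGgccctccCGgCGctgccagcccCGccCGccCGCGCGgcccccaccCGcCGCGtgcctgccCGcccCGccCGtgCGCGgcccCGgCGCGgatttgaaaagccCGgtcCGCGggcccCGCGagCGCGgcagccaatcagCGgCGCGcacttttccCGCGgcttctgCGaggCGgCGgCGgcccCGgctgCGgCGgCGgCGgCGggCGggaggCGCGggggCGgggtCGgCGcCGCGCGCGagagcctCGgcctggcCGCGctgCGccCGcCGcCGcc

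The 3 windows differ in base composition. SETD2 holds 28 CG dinucleotides in 300 bases, a number reached by 26.2% of the 35116 RefSeq promoters of the same length. KMT2A holds 36, reached by 12.7%, and NSD2 holds 63, reached by 0.0456%. All 5 genes had at least 1 RefSeq promoter. That of KMT2C holds 56 (reached by 0.276%), and the 5 listed for NSD1 hold from 7 to 48. CG is its own reverse complement, so both strands give the same count. The promoters are on another build than the intervals and were not laid over them, and base composition was not compared with the intervals themselves.

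Taken over their whole length, KMT2A, KMT2C and SETD2 held more LSD2 intervals per Mb than their flanks and than the rest of their chromosomes. KMT2A had 354 intervals per Mb (95% exact Poisson interval 242 to 500), against 170 (132 to 216) in the 200 kb on each side together and 120 (119 to 122) on the rest of chromosome 11. SETD2 had 285 per Mb (205 to 385), against 112 (82.1 to 151) in its flanks and 141 (140 to 143) on the rest of chromosome 3. KMT2C had 206 per Mb (158 to 264), against 90.0 (63.0 to 125) in its flanks and 124 (123 to 126) on the rest of chromosome 7. In each of these genes the counting interval lay above that of the chromosome.

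NSD1 and NSD2 differed less from their surroundings. NSD1 had 150 intervals per Mb (96.8 to 221), against 115 (84.2 to 153) in its flanks and 127 (126 to 129) on the rest of chromosome 5. NSD2 had 108 per Mb (56.0 to 189), against 82.5 (56.8 to 116) in its flanks and 130 (128 to 132) on the rest of chromosome 4. For both genes the counting interval overlapped that of the flanks and included the chromosome's density. The intervals cover counting error only and treat neighbouring LSD2 intervals as independent, which they need not be.

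**Figure D1:**
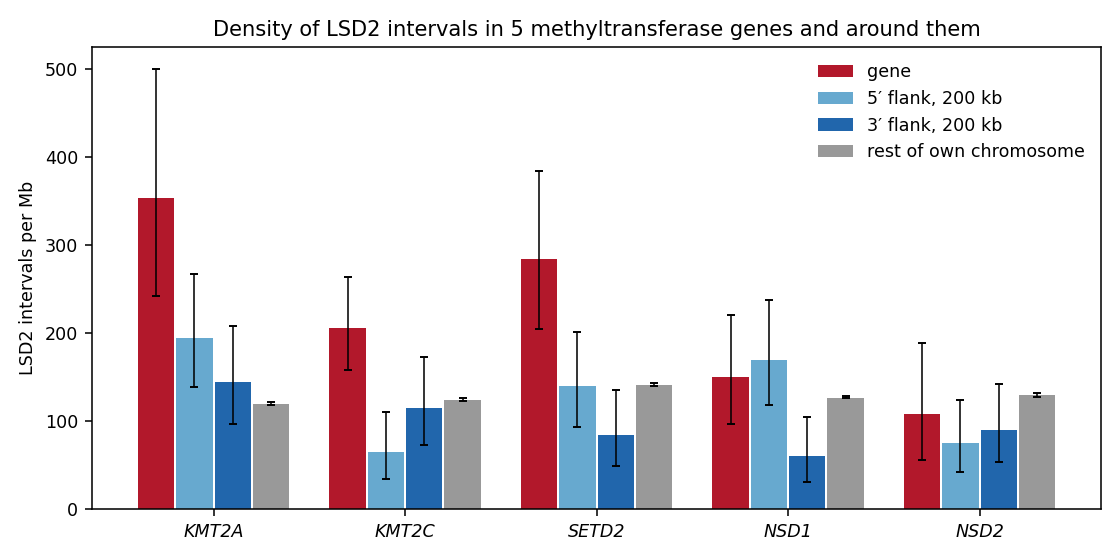
LSD2 intervals per Mb in each gene, in the 200 kb on its 5′ and 3′ sides and on the rest of its chromosome; bars are counts over length and error bars are 95% exact Poisson intervals. KMT2A (354 per Mb) and SETD2 (285 per Mb) stand highest, and only for NSD1 does a flank (170 per Mb on the 5′ side) exceed its gene (150 per Mb).

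As ratios to the flanks, 3 of the 5 genes passed the fold of 1.5 used here. SETD2 was 2.53 times as dense as its flanks (95% exact interval 1.62 to 3.94), KMT2C 2.29 times (1.49 to 3.55) and KMT2A 2.08 times (1.32 to 3.22). NSD2 (1.31, interval 0.62 to 2.61) and NSD1 (1.30, 0.77 to 2.16) did not pass. With flanks of 100 kb all 5 passed and the order changed, with SETD2 at 2.47 (1.45 to 4.31), NSD1 at 2.30 (1.13 to 4.90), KMT2C at 1.79 (1.09 to 3.03), NSD2 at 1.55 (0.65 to 3.60) and KMT2A at 1.51 (0.93 to 2.41). With flanks of 500 kb NSD1 stood at 1.74 and NSD2 at 1.55. Among intervals at least as wide as the median of the whole list, KMT2C was 4.10 times as dense as its flanks. The background to the count of 3 is how often any stretch of the same length passes against its own flanks of 200 kb. Such shares were not computed for flanks of 100 or 500 kb, so the count of 5 has no background here. Among tiles of the gene's length on its own chromosome, 14.2% reached 1.5 times their own flanks for the length of KMT2A, 8.77% for KMT2C, 9.30% for SETD2, 9.38% for NSD1 and 10.9% for NSD2. Neighbouring tiles are not independent, and the tiles include genes and intergenic sequence alike. No member was at or below 1/1.5 of its flanks, which 22.8%, 11.3%, 13.9%, 14.6% and 16.4% of the tiles were for the lengths of KMT2A, KMT2C, SETD2, NSD1 and NSD2.

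Relative to the rest of the own chromosome the order was KMT2A, SETD2, KMT2C, NSD1 and NSD2. The ratios were 2.94 (2.01 to 4.15), 2.02 (1.45 to 2.72), 1.66 (1.27 to 2.12), 1.18 (0.76 to 1.74) and 0.83 (0.43 to 1.45). Each gene's interval overlapped that of the next in this order, so the order of neighbours was not separated by counting error, whereas that of KMT2A lay wholly above those of NSD1 and NSD2. NSD2 was the only member below its chromosome, while being above its own flanks. Its flanks had 82.5 intervals per Mb, less than the 130 per Mb of chromosome 4.

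The 2 flanks of a gene differed in count, but their counting intervals overlapped for every gene except NSD1. For NSD1 they were 118 to 238 per Mb on the 5′ side and 31.0 to 105 per Mb on the 3′ side. Upstream of KMT2C only 13 intervals lay in 200 kb (65.0 per Mb), with 23 downstream (115 per Mb), so the gene was 3.17 times as dense as its 5′ flank (1.72 to 6.28) and 1.79 times as dense as its 3′ flank (1.09 to 3.03). For SETD2 the 5′ flank held 28 intervals and the 3′ flank 17, giving ratios of 2.03 (1.23 to 3.41) and 3.35 (1.87 to 6.27). For KMT2A the flanks held 39 and 29, giving 1.82 (1.10 to 2.98) and 2.44 (1.43 to 4.19). These 3 genes were thus at least 1.5 times as dense as each of their flanks, which NSD1 and NSD2 were not. The share of tiles that pass against each single flank was not computed, so this count has no background here. For NSD1 the 5′ flank held 34 intervals and the 3′ flank 12. The gene was 0.88 times as dense as the 5′ flank (0.50 to 1.52) and 2.49 times as dense as the 3′ flank (1.21 to 5.45). NSD2 lay between 15 intervals upstream and 18 downstream, with ratios of 1.44 (0.62 to 3.30) and 1.20 (0.53 to 2.64).

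Among tiles of their own length, KMT2A and SETD2 stood near the top of their chromosomes. Of 1445 tiles of chromosome 11, 99.0% held fewer than the 32 intervals of KMT2A, and the median tile held 10. Of 1312 tiles of chromosome 3, 97.5% held fewer than the 42 of SETD2, and the median tile held 19. These places say where the genes stand in the distribution and are not a test. For KMT2C 93.4% of 513 tiles held fewer than 62, for NSD1 70.6% of 1056 tiles held fewer than 25, and for NSD2 33.9% of 1685 tiles held fewer than 12. Neither KMT2A nor SETD2 was an extreme, since the fullest tiles of those lengths on their chromosomes held 46 and 70 intervals. Over all chromosomes, which differ in density, the places were 99.0% for KMT2A, 97.3% for SETD2, 89.4% for KMT2C, 66.0% for NSD1 and 39.8% for NSD2.

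**Figure D2:**
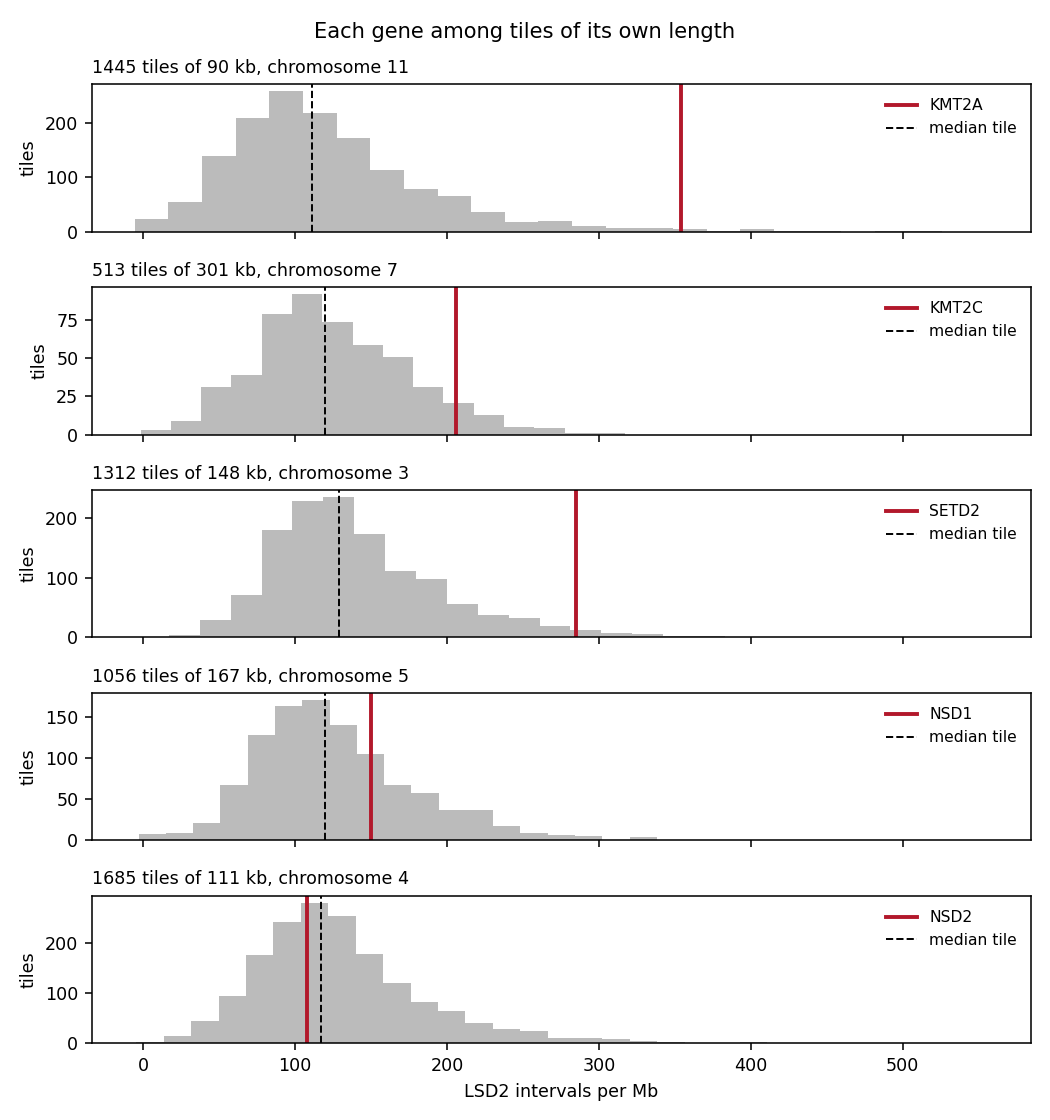
Histograms of LSD2 intervals per Mb in non-overlapping tiles of each gene's own length on its own chromosome, with the gene (red line) and the median tile (dashed line). KMT2A lies above 99.0% and SETD2 above 97.5% of the tiles, while NSD2 lies just left of its median tile, above 33.9%.

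For a grouping by the residue that the enzymes methylate, counts and lengths were summed, with equal flanks for every gene whatever its length. The pooled ratio of the H3K4 group was thereby below those of both its members, 2.08 for KMT2A and 2.29 for KMT2C. The pooled ratios therefore do not show whether the 2 groups were alike. The H3K4 methyltransferase genes KMT2A and KMT2C held 94 intervals in 391 kb, or 240 per Mb (194 to 294), which was 1.85 times the density of their flanks (1.38 to 2.47). The H3K36 methyltransferase genes SETD2, NSD1 and NSD2 held 79 in 426 kb, or 186 per Mb (147 to 231), which was 1.80 times that of their flanks (1.34 to 2.40). Within the H3K36 group the values ran from 108 per Mb in NSD2 to 285 per Mb in SETD2, a wider span than that between the groups. All 5 genes together had 212 intervals per Mb (181 to 246), against 114 (99.7 to 130) in 2000 kb of flanks. Other genes for H3K4 and H3K36 methyltransferases, such as KMT2D, SETD1A, NSD3 and ASH1L, were not placed on the intervals, as no hg19 positions for them were used here.

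Along the genes, intervals in KMT2A became more frequent toward the 3′ end. In 10 equal bins of 9.03 kb from the 5′ end, KMT2A held 2, 1, 2, 1, 3, 3, 4, 4, 6 and 6 intervals. The 3′ side of the gene's middle held 23 of its 32 intervals (71.9%, 95% exact binomial interval 53.3% to 86.3%), and the last 2 bins held 12, a density of 664 per Mb. Of the 23, 9 were listed more than once in the deposited list, against 1 of the 9 on the 5′ side. Every interval of the last bin was among them, so that bin was empty of intervals listed once. Successive midpoints were within 2 kb of each other for 6 intervals between 83.2 and 87.5 kb from the 5′ end. The longest stretch between midpoints, 10.0 kb, lay nearer the 5′ end, from 28.6 to 38.6 kb.

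KMT2C also had its fullest bin at the 3′ end. Its bins of 30.1 kb held 5, 4, 6, 5, 4, 5, 8, 5, 8 and 12 intervals, with 38 of 62 on the 3′ side of the middle (61.3%, 48.1% to 73.4%). The interval on this share includes an even division. Every bin held at least 4 intervals, and the longest stretch between midpoints was 19.6 kb, from 40.5 to 60.1 kb. Parts of KMT2C have near-identical copies on other chromosomes, so reads of those parts can be misplaced or dropped, and its counts are uncertain to that extent.

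SETD2 was fullest near its middle. Its bins of 14.8 kb held 2, 3, 3, 5, 9, 4, 4, 6, 4 and 2 intervals, and 20 of 42 lay on the 3′ side of the middle (47.6%, 32.0% to 63.6%). A stretch of 19.9 kb, from 18.4 to 38.3 kb, held no midpoint. NSD1 and NSD2 showed no lean to either side. The bins of NSD1, 16.7 kb each, held 4, 1, 1, 5, 2, 3, 1, 2, 3 and 3 intervals, and 12 of 25 lay 3′ of the middle (48.0%, 27.8% to 68.7%). NSD2 held 5 of 12 there (41.7%, 15.2% to 72.3%) and had 3 bins with no interval.

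**Figure D3:**
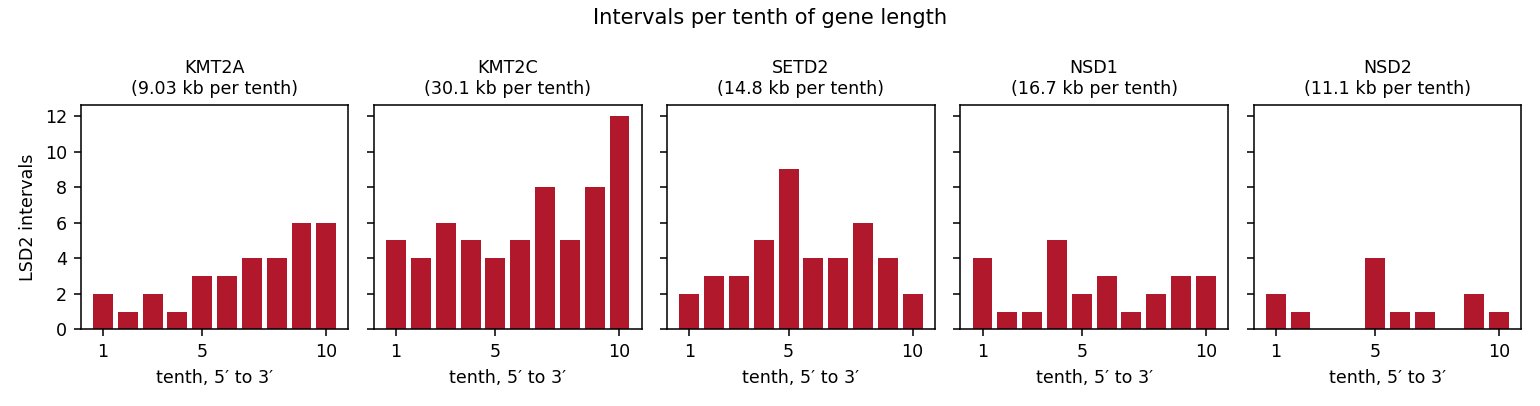
Number of LSD2 intervals in each of 10 equal bins of each gene, from the 5′ end (bin 1) to the 3′ end (bin 10); bin length is given above each panel. KMT2A and KMT2C end on their highest counts (6 and 12), those 6 of KMT2A all being listed more than once, and SETD2 peaks at 9 in bin 5.

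The ends of the genes were examined in windows of 2 kb on either side. At the annotated 5′ end only SETD2 had a midpoint in this window, so 1 of the 5 genes had one. Windows of that size held at least 1 midpoint in 42.3% of cases on chromosome 3, 39.6% on chromosome 4, 38.7% on chromosome 5, 38.0% on chromosome 7 and 37.0% on chromosome 11. With 5 windows a count of 1 is too small to set apart from these shares. At the 3′ ends 2 of 5 windows, those of KMT2A and SETD2, held a midpoint. A gene can have further starts, which were not placed here.

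The intervals nearest to the gene ends show where the rule drew its line. SETD2 had its first interval 1.90 kb inside the gene, at 47203499 to 47203641 on chromosome 3, with a width of 143 bp, and the next one upstream lay 42.9 kb outside it. The annotated 5′ end of SETD2 thus fell in a spacing of 44.8 kb between midpoints, and spacings at least that long made up 3.87% of the sequence of chromosome 3. In KMT2A the first interval lay 2.78 kb inside (118309906 to 118310055, 150 bp) and the nearest outside lay 6.76 kb upstream. KMT2C had intervals 2.21 kb inside and 2.09 kb outside its 5′ end, so its start fell between neighbours 4.29 kb apart. For NSD1 these distances were 5.73 and 9.50 kb, and for NSD2 they were 3.06 and 2.53 kb. The spacings that held the 5′ ends of KMT2A, KMT2C, NSD1 and NSD2 were thus 9.54, 4.29, 15.2 and 5.59 kb, and spacings at least as long made up 68.6%, 88.4%, 46.3% and 82.6% of the sequence of their chromosomes. At the 3′ ends the nearest midpoints inside and outside lay at 2.86 and 1.06 kb for KMT2A, 5.85 and 2.82 kb for KMT2C, 1.74 and 3.06 kb for SETD2, 4.37 and 9.73 kb for NSD1, and 6.05 and 5.96 kb for NSD2. No interval crossed a gene end, as counting every interval that overlapped a gene gave the same numbers.

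Width, the length in bases of the called region, was the other value each interval carried. Widths crowded near a lower limit. On the rest of each of the 5 chromosomes the narrowest interval was 137 bp, and 49.0% to 50.1% were below 170 bp. In SETD2 the median was 204 bp (95% interval of the median 158 to 314), against 164 bp (154 to 182) in its flanks and 171 bp on the rest of chromosome 3. In KMT2C it was 205 bp (164 to 257), against 160 bp (153 to 173) in its flanks and 171 bp on the rest of chromosome 7. The medians of NSD1 and NSD2 were both 216 bp (156 to 273 and 152 to 354), against 183 and 176 bp in their flanks and 170 and 169 bp on their chromosomes. In these 4 genes intervals were wider at the median than in the flanks, but in each gene the interval of the median overlapped that of the flanks. For NSD2 the direction turned with flanks of 100 kb, where its median minus theirs was -23.5 bp. KMT2A, the densest member, had a median of 172 bp (154 to 262), against 188 bp (164 to 275) in its flanks and 170 bp on the rest of chromosome 11. With every deposited line counted, its median minus that of its flanks was 23.5 bp in place of -16.5 bp. The medians were also placed among tiles of the gene's length on its own chromosome with at least 5 intervals. The tile median was narrower in 87.7% for KMT2C, 87.0% for NSD1, 83.6% for NSD2, 82.3% for SETD2 and 55.3% for KMT2A. How often a tile's median exceeds that of its own flanks was not computed, so the count of 4 genes has no background here.

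Wide intervals were most frequent in SETD2, though the counting interval of its share overlapped those of its flanks and of every other member. Of its 42 intervals 9 were at least 400 bp wide (21.4%, 95% exact binomial interval 10.3% to 36.8%), compared with 6.67% (1.40% to 18.3%) in its flanks and 6.94% on the rest of chromosome 3. KMT2A had 1 of 32 (3.12%, 0.0791% to 16.2%), against 13 of 68 (19.1%, 10.6% to 30.5%) in its flanks. KMT2C had 4 of 62 (6.45%), NSD1 1 of 25 and NSD2 2 of 12 (16.7%, 2.09% to 48.4%). The shares in the flanks of KMT2C, NSD1 and NSD2 were 2.78%, 10.9% and 9.09%. Intervals covered 8.28% of SETD2 and 8.02% of KMT2A, against 2.50% and 4.58% of their flanks. The covered share was 5.07% in KMT2C, 3.64% in NSD1 and 2.72% in NSD2, against 1.82%, 2.86% and 1.96% of the flanks.

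The widest member interval, 827 bp, lay in SETD2 from 47144577 to 47145403, 60.5 kb from the 5′ end. The next in SETD2 were 727 bp wide (47088607 to 47089333) and 602 bp wide (47151286 to 47151887). Between 53 and 69 kb from the 5′ end, a window chosen after its values were seen, 5 of the 9 intervals were at least 400 bp wide. In KMT2C the widest interval, 766 bp from 152130500 to 152131265, was also the one closest to the 5′ end, at 2.21 kb. It was followed by 614 bp (152037961 to 152038574) and 551 bp (151854557 to 151855107). In KMT2A the widest were 490 bp (118393625 to 118394114), 393 bp (118368967 to 118369359) and 368 bp (118392979 to 118393346). Those of 490 and 368 bp lay in the crowded last bin. In NSD1 they were 563 bp (176661924 to 176662486), 395 bp (176688472 to 176688866) and 390 bp (176581221 to 176581610).

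**Figure D4:**
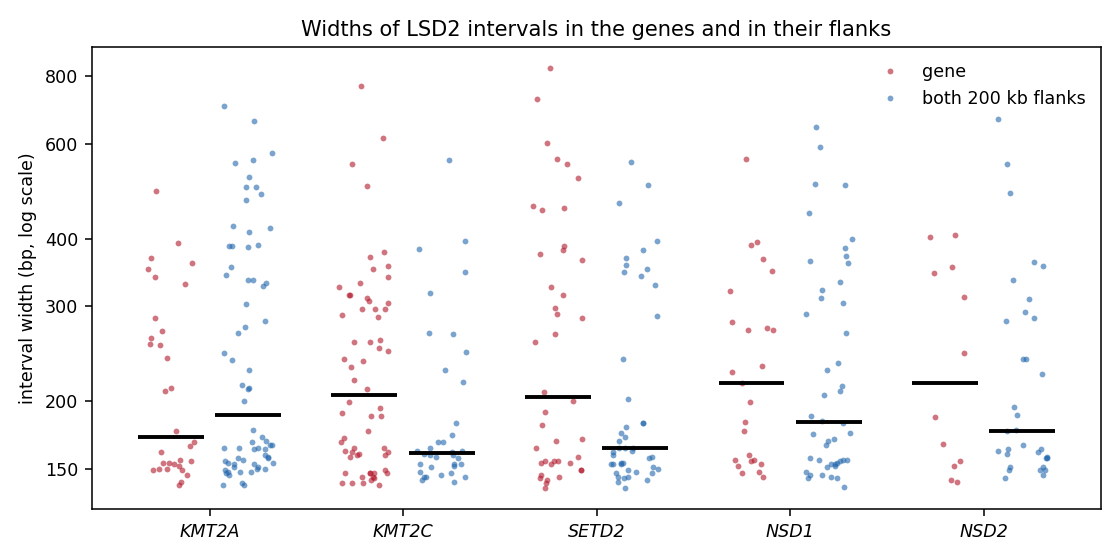
Width of every LSD2 interval in each gene (red) and in its 2 flanks of 200 kb (blue), on a log scale; points are intervals, with a random sideways shift, and black lines are medians. The gene medians (204 to 216 bp) lie above the flank medians in KMT2C, SETD2, NSD1 and NSD2, while KMT2A (172 bp) lies below its flanks (188 bp).

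The few intervals of NSD2 can be given one by one. The first 3 lay 3.06, 6.95 and 19.5 kb from the 5′ end and were 346, 407 and 167 bp wide. A stretch of 26.3 kb without a midpoint followed, the longest in any of the 5 genes. After it came a group of 5 intervals at 45.8, 46.2, 49.7, 52.6 and 55.8 kb, with widths of 187, 312, 403, 155 and 143 bp. The widest 3 of the gene were thus 407 bp (1879874 to 1880280), 403 bp (1922633 to 1923035) and 354 bp (1940990 to 1941343). The last of these stood alone at 68.0 kb. The final 3 lay at 89.4, 95.6 and 105 kb with widths of 152, 142 and 246 bp.

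Spacing followed density. The median distance between successive midpoints was 2161.5 bp in KMT2A, 2418 bp in SETD2 and 3271.5 bp in KMT2C, against 5005, 4366 and 4716.5 bp on their chromosomes. It was 4682.75 bp in NSD1 and 6204 bp in NSD2, against 4774 and 4801.5 bp. Distances under 1 kb made up 26.8% of those in SETD2 (11 of 41), 19.4% in KMT2A and 16.4% in KMT2C. In NSD2 and NSD1 they made up 9.09% (1 of 11) and 4.17% (1 of 24). On the 5 chromosomes this share ran from 11.9% to 13.4%.

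Within KMT2A, repeated lines of the deposited list were concentrated at the 3′ end. Over the whole list 10.1% of distinct intervals were listed more than once, and on chromosome 11 the share was 12.2%. In KMT2A it was 10 of 32 (31.2%, 95% exact binomial interval 16.1% to 50.0%), against 16 of 68 in its flanks (23.5%, 14.1% to 35.4%). Of these 10, 9 were the last 9 intervals of the gene, from 76.1 kb onward, while only 1 of the 23 before them was repeated. The row went on for 1 interval past the 3′ end, 1.06 kb outside. Such rows were not confined to the gene. In its 5′ flank every interval from -40.0 to -30.9 kb relative to the 5′ end was listed 2 times. Repeated intervals made up 8 of 39 in the 5′ flank (20.5%) and 8 of 29 in the 3′ flank (27.6%). How often such rows occur elsewhere on chromosome 11 was not computed. Of the repeated intervals in KMT2A, 2 were listed 3 times and 8 were listed 2 times. Among 1314 tiles of the gene's length on chromosome 11 with at least 5 intervals, 87.1% had a lower repeated share than KMT2A. Repeated intervals came in a row here, which the binomial interval does not take into account.

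The other genes had few repeated lines, namely 2 of 62 in KMT2C (3.23%, 0.393% to 11.2%), 3 of 42 in SETD2 (7.14%), 1 of 25 in NSD1 and 1 of 12 in NSD2 (8.33%). The shares on their chromosomes were 9.42%, 9.49%, 9.44% and 6.56%. The first intervals inside KMT2A, KMT2C and SETD2, at 2.78, 2.21 and 1.90 kb from the 5′ end, were each listed more than once. Those of NSD2 and NSD1, at 3.06 and 5.73 kb, were listed once. Over the whole list 10.1% of distinct intervals were listed more than once. The share among first intervals of other genes was not computed. No source used here states what a repeated line stands for. Repeats were counted once in every density above. Among intervals listed once, KMT2A was 1.87 times as dense as its flanks and 2.30 times as dense as the rest of chromosome 11.

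**Figure D5:**
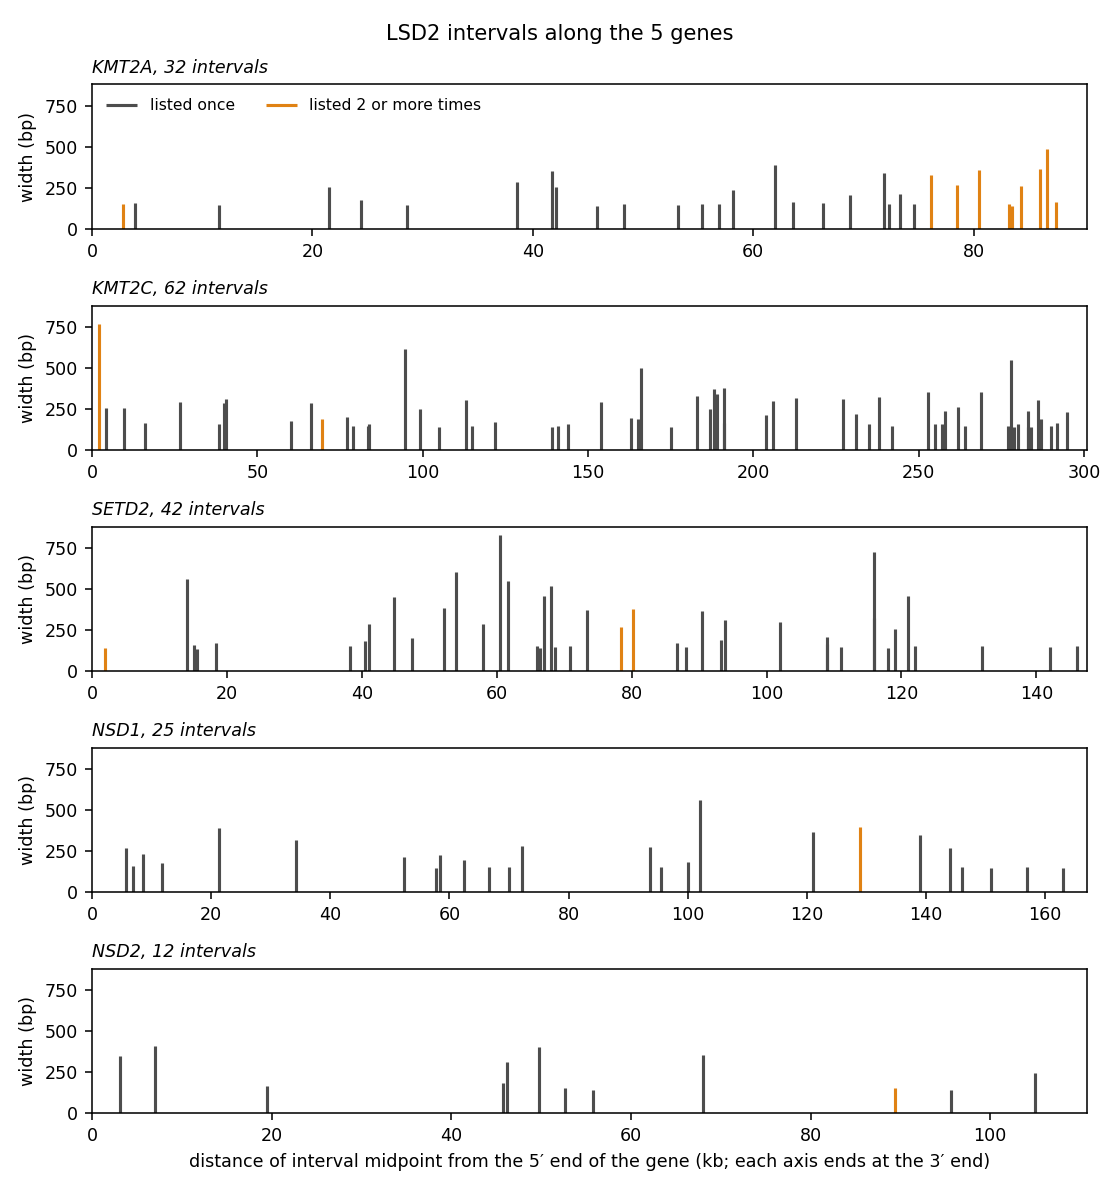
Each LSD2 interval as a vertical line at the distance of its midpoint from the 5′ end of the gene (kb), with its width in bp as height; orange lines are intervals listed 2 or more times in the deposited list. In KMT2A the last 9 of 32 intervals are all orange, and the tallest line of the figure is the 827 bp interval of SETD2.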

How the data were processed

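The deposited data were a single list of interval start and end positions (unit: other, bases on hg19) made by the authors from 1 LSD2 ChIP and 1 input library. Per the file headers, reads were trimmed, duplicates removed, and regions called with MACS for LSD2 against input at a p-value cutoff of 1e-05. The call was made with local biases detected, reads and fragments taken as 120 bp and the effective genome as 2700 Mb. The headers also list an enrichment factor of 32, which is not read here as a cutoff that each interval passed. The read-set names in the header carry different dates for ChIP and input, so run and antibody cannot be told apart. Per the submitters' processing notes, BWA and hg19 were used, and tool versions are not given there. More reads or more DNA from a region let more and wider regions pass such a cutoff, so number and width move with depth and copy number, neither of which was measured.

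Identical lines were counted as 1 interval, which turned 414095 lines into 370863 intervals. Starts were read as counted from 0 and positions are given counted from 1. Intervals were assigned by midpoint. Flanks were 200 kb on each side. A chromosome's length ran from its first to its last interval without interval-free stretches over 500 kb. Tiles were non-overlapping and of the gene's length, with their flanks in such sequence; tiles touching the gene were left out. Density intervals are exact Poisson, ratio and share intervals exact binomial, and median intervals from order statistics, all at 95% and for counting error only. A fold of 1.5 was used as the threshold. The density ratio to flanks and the width difference from the chromosome were tested on simulated intervals placed independently of each other. That simulation cannot show how the counting intervals hold where LSD2 intervals cluster. The other measures were not simulated. Python 3.11.15, pandas 2.3.3, numpy 2.4.6 and scipy 1.17.1 were used.

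The members, lists and measures were chosen with earlier results of these data known. All 5 genes are named, together with their 3 widest intervals, those next to the gene ends, and every interval of a gene with 12 or fewer; NSD2 alone qualified. Promoter display was planned for genes with an interval within 2 kb of the 5′ end, and KMT2A and NSD2 were added after their values were seen. Protein stretches planned for display and other methyltransferase genes were left out. Alternatives were every line counted, merging up to 100 bp, any overlap, wider intervals alone, flanks of 100 or 500 kb, and leaving out stretches over 100 kb; intervals listed once and single flanks were added later.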

Additional observations from a re-analysis of the deposited data

How the results depend on the processing

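Of 125 values of the 4 measures under the alternatives, 120 stayed within the counting interval of the value reported and none of the values past a threshold changed direction. The 120 include those for any overlap, which repeated the reported values because no interval crossed a gene end. A value within its counting interval could still change its call or direction, as some of those below did. KMT2A, KMT2C and SETD2 stayed at or above 1.5 times their flanks under every alternative run, at 1.51 to 2.62, 1.79 to 4.10 and 2.03 to 3.61. The density ratio to flanks of KMT2C was 4.10 among intervals at least as wide as the list's median. That of NSD1 was 2.30 with flanks of 100 kb and 2.49 against the 3′ flank alone, past 1.5, and 0.88 against the 5′ flank. It was 1.74 with flanks of 500 kb. NSD2 reached 1.55 with flanks of 100 and of 500 kb. The calls of NSD1 and NSD2 thus depend on the flank chosen, and the cause was not tested. The median width of KMT2A minus that of its flanks, -16.5 bp, was -39.0 bp with flanks of 100 kb, -48.5 bp among intervals listed once and 23.5 bp with every line counted. For NSD2 it was 40.5 bp, and -23.5 bp with flanks of 100 kb. Single flanks and intervals listed once were chosen after seeing the data. No paired analysis was possible because LSD2 ChIP and input had 1 library each. Depth, unknown here, bounds all of this, since a region with too few reads gives no interval.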
